A study of Mus musculus with 18 samples.

Results

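The genes described here were 10 imprinted genes with known roles in growth, taken by symbol from the 30172 genes of the ovary RNA-seq data. They were H19, Igf2, Meg3, Dlk1, Peg3, Mest, Plagl1, Cdkn1c, Igf2r and Grb10. All 10 were found in every library, and all 10 passed the filter on low levels in every comparison. The libraries came from whole ovaries of wild-type C57BL/6J females at Pd3, Pd7 and Pd21 (postnatal days 3, 7 and 21). The dams of the F1-HHcy group ate a diet with 3% methionine, which induces hyperhomocysteinemia (HHcy), from before mating until the end of lactation (4 weeks before mating per the labels, a longer time per the study's methods). The dams of the F1-Control group ate normal chow, which the study's methods describe as a standard diet with methionine added to a lower level. The pups were not treated themselves and the sires ate a normal diet. Each of the 6 groups of diet and day had 3 libraries, which makes 18 in all. Whether a library came from 1 pup or from several, and whether the pups of a group shared a litter, is not given in the sources used here, so p-values measure only the spread between these libraries. Pd3 and Pd7 were labelled as batch 1 and Pd21 as batch 2, so each comparison of diets lay within 1 batch.

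An imprinted gene is transcribed mainly from 1 parental copy, because DNA methylation set in the egg or the sperm marks the parental copies as different. In mice, Igf2, Dlk1, Peg3, Mest and Plagl1 are known as paternally expressed, and H19, Meg3, Cdkn1c, Igf2r and Grb10 as maternally expressed, with exceptions in single tissues. Many of these genes are high in fetal and newborn tissues and decline together as growth slows after birth, and Plagl1, a zinc finger transcription factor, is known to bind regulatory sequences of several of the others. The marks are removed in the germ line of the embryo and are set again in the growing oocyte, so an ovary holds oocytes without complete marks and somatic cells with 2 marked parental genomes. Since all mice were of 1 inbred strain, transcripts of the maternal and the paternal copy could not be told apart, and the values below are of both copies together.

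The 10 genes lie on 6 chromosomes (coordinates from RefSeq, build GRCm38.p6). H19, a long noncoding RNA, spans chr7:142575530-142578146, and Igf2, which encodes the growth factor IGF2, spans chr7:142650768-142666816, with 72.6 kilobases between them. Dlk1, a membrane protein of the Delta/Notch family, spans chr12:109452485-109463336, and Meg3, a long noncoding RNA of the same domain, spans chr12:109540996-109571729, with 77.7 kilobases between them. Cdkn1c (the cell cycle inhibitor p57) spans chr7:143458339-143461059, Peg3 (a zinc finger protein) chr7:6703892-6730462 and Mest (a hydrolase-like membrane protein) chr6:30733506-30748466. Plagl1 spans chr10:13090832-13131694, Igf2r (the receptor that carries IGF2 to lysosomes) chr17:12682406-12769706 and Grb10 (an adaptor that dampens insulin and IGF1 receptor signalling) chr11:11930499-12037428. Of the antisense genes that overlap members, Igf2os reached at most 0.926 FPKM. Airn, which runs across from Igf2r, reached 7.13 FPKM, near the lowest library of Igf2r (7.90 FPKM). Copg2, across from Mest, reached 18.04 FPKM, above the highest library of Mest (12.3 FPKM). The libraries were stranded, but whether the counting used the strand is not given in the sources used here.

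Promoters of 8 members were at hand, 15 in all, as windows from 250 bases before to 50 after a start site. The hexamer TGCCGC, known as the site of the imprint-keeping protein ZFP57, was present on either strand in 6 of these 15 windows, which belonged to 5 genes (Mest, Igf2, Plagl1, Grb10 and Meg3), and in 11.6% of 32851 mouse promoters. A pair of the 6 windows, both of Mest, start 3 bases apart and hold the same sites, so they are 1 stretch of sequence counted under both. The octamer GGGGCCCC, known as a site of the PLAGL1 protein, was present in 1 of the 15 windows, that of Peg3, and in 1.08% of all promoters. The letters TATAAA were present in 1 window, that of Meg3, and in 13.6% of all promoters. A window of a start site shows only what letters are there, since the controlling regions of imprinted genes often lie elsewhere. The 250 bases before the start site are shown for Peg3 and Mest, which fell in F1-HHcy ovaries at Pd7, and for Plagl1 and Meg3, which were not called lower there. Capitals mark GGGGCCCC, TGCCGC or its reverse GCGGCA, and TATAAA or its reverse TTTATA, which overlap in Meg3. Peg3 is read on the minus strand of chr7:6730420-6730669, Mest on the plus strand of chr6:30737800-30738049, Plagl1 on the plus strand of chr10:13090582-13090831 and Meg3 on the plus strand of chr12:109540746-109540995.
Peg3: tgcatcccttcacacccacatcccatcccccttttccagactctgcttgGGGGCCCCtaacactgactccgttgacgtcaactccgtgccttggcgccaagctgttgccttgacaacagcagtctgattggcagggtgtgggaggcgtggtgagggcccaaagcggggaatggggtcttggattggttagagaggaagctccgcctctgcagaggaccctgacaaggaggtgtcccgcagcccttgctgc
Mest: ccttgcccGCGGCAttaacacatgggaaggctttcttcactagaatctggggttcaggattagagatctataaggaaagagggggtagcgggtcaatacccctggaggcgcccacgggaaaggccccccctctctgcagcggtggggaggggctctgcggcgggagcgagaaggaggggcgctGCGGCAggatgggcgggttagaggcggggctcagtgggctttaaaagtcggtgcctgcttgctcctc
Plagl1: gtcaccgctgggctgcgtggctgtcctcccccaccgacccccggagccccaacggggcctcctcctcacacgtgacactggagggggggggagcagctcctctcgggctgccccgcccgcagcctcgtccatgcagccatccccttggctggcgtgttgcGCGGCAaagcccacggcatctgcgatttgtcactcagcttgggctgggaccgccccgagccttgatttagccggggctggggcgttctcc
Meg3: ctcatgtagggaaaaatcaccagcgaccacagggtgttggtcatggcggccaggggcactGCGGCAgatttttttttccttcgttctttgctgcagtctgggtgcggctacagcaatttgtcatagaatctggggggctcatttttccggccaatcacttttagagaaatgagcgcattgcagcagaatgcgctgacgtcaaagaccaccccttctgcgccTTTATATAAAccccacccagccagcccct

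Levels are given as FPKM, which counts sequenced fragments relative to the length of the gene and to all fragments that fell on genes in the library, so that levels of different genes can be set side by side. Between 33630641 and 39399281 fragments per library fell on genes. Even the gene with the fewest fragments, Dlk1, had 142 in its lowest library, and H19 had between 3610 and 53458. Markers of granulosa cells and of germ cells were found in every group, as an ovary should show, while the summed markers of skeletal muscle stayed at or below 4.12 FPKM and those of the adrenal cortex at or below 7.19 FPKM. The F1-HHcy libraries of Pd3 stood apart from each other, with replicate 3 farthest from replicate 1 (r = 0.975 over genes, against 0.993 or more between F1-Control libraries of that day), and F1-Control Pd7 replicate 2 stood apart from its group (r = 0.986 and 0.987). At Pd21, r was 0.982 and 0.987 between F1-HHcy replicate 1 and the others of its group, against 0.993 between those, and 0.984 to 0.99 among the F1-Control libraries. For the members, results that rest on such a library are given with and without it. Calls of named genes outside the members, markers among them, are given with all libraries only. How many of those calls remain without such a library was not tested. Over all genes at Pd7, 782 rose and 795 fell, against 391 and 334 without F1-Control replicate 2. At Pd3, 218 rose and 190 fell, against 43 and 41 without F1-HHcy replicate 1 and 1219 and 1605 without replicate 3. Differences are log2 fold changes of FPKM + 1 with their standard error (SE) from limma, and a gene is said to rise or fall where its p, adjusted over all genes tested, was under 0.05. The 1 added to each value shrinks the change of the lowest genes, such as Dlk1 at Pd21. In bulk tissue, fewer cells of a type and less RNA per cell cannot be told apart.

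**Figure D1:**
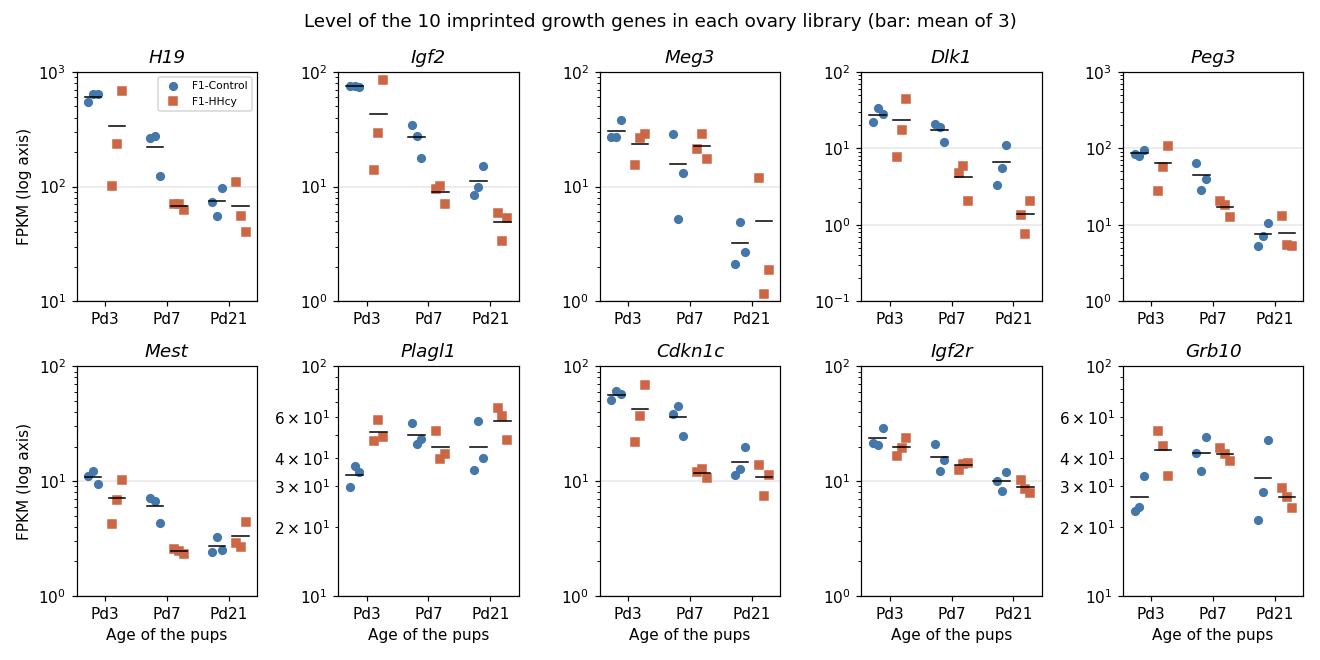
FPKM on a log axis in each of the 18 libraries (circles F1-Control, squares F1-HHcy, black bars group means), 1 panel per gene, with Pd3, Pd7 and Pd21 from left to right. H19, Igf2, Dlk1, Peg3, Mest and Cdkn1c step down from Pd3 to Pd7 in both diets and lie lower in all F1-HHcy than in all F1-Control libraries at Pd7, while Plagl1 and Grb10 stay between 21.4 and 65.9 FPKM in every library.

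H19 was by far the highest member, with a mean of 609 FPKM ± 50.9 (SD, n = 3) in F1-Control ovaries at Pd3. There it made up 62.1% of the summed level of the 10 genes. Peg3 (86.8 ± 8.01), Igf2 (74.9 ± 0.924) and Cdkn1c (56.5 ± 5.01) came next, followed by Plagl1, Meg3, Dlk1, Grb10 and Igf2r with means between 33.8 and 23.7 FPKM and by Mest with 11.0 FPKM. By Pd21 in the same diet H19 was still first at a mean of 75.3 FPKM, but Plagl1 (44.4) and Grb10 (32.6) stood next, and Meg3 (3.24) and Mest (2.73) were lowest. For 8 of the 10 genes, all but Plagl1 and Grb10, the highest of the 6 group means was that of F1-Control Pd3 and the next that of F1-HHcy Pd3. Dlk1 spanned the widest range, 59.5-fold from its lowest to its highest library, and Plagl1 the narrowest, 2.21-fold. Of the 5 neighbouring pairs of groups in each gene's order, none was free of overlap for Meg3, Mest, Plagl1 and Grb10, 1 was for H19, Dlk1, Peg3, Cdkn1c and Igf2r, and 2 were for Igf2. The neighbours without overlap were F1-Control Pd7 over F1-Control Pd21 for H19, Igf2, Dlk1 and Cdkn1c, F1-HHcy Pd7 over F1-HHcy Pd21 for Igf2, F1-Control Pd7 over F1-HHcy Pd7 for Peg3, and F1-HHcy Pd7 over F1-Control Pd21 for Igf2r.

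The first question was how the ovaries of the 2 diets differed on each day. At Pd7, H19, Igf2, Dlk1, Peg3, Mest and Cdkn1c fell in F1-HHcy ovaries, 6 of the 10 members, against 5.98% of the 13299 genes tested that fell and 5.88% that rose. In each of the 6, every F1-HHcy library lay below every F1-Control library, which was true of 19.5% of all genes tested. Their means were 2.48-fold (Mest) to 4.10-fold (Dlk1) lower than in F1-Control ovaries. Meg3, Plagl1, Igf2r and Grb10 did not pass the test, and no member rose. The median log2 change of the 10 genes was -1.14, and that of all genes tested was -0.0015.

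Among the growth factor and its partners, Igf2 was at 34.7, 27.8 and 17.9 FPKM in the F1-Control libraries at Pd7 (replicates 1, 2 and 3) and at 9.57, 10.1 and 7.07 FPKM in the F1-HHcy libraries. The groups did not overlap, and the log2 change was -1.46 (SE 0.231), with a mean 3.01-fold lower and an adjusted p of 0.00658. Igf2r, the receptor that clears the ligand, was at 21.2, 12.2 and 15.3 FPKM in F1-Control and at 12.5, 14.2 and 14.4 FPKM in F1-HHcy libraries. These groups overlapped, and the log2 change of Igf2r was -0.20 (95% confidence interval -0.62 to 0.23, adjusted p = 0.502). Grb10, the adaptor on the insulin and IGF1 receptors, was at 41.8, 35.1 and 49.1 FPKM in F1-Control and at 43.9, 41.5 and 38.6 FPKM in F1-HHcy libraries. Its log2 change was -0.01 (95% confidence interval -0.36 to 0.33, adjusted p = 0.968).

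Of the long noncoding RNAs, H19 was at 267, 274 and 123 FPKM in the F1-Control libraries at Pd7 and at 70.1, 71.1 and 62.7 FPKM in the F1-HHcy libraries. The F1-HHcy libraries lay close together and below all controls, with a log2 change of -1.60 (SE 0.276, adjusted p = 0.00819). Meg3 went the other way in the means only, with 29.0, 5.26 and 13.1 FPKM in F1-Control and 21.3, 28.9 and 17.3 FPKM in F1-HHcy libraries. The control libraries of Meg3 were scattered, replicate 2 being lowest and replicate 1 above every F1-HHcy library, and the log2 change was 0.73 (SE 0.454, adjusted p = 0.29). Without that replicate 2 it was 0.16 and without replicate 1 it was 1.29 (adjusted p = 0.0514), so these libraries decided the size of the Meg3 difference. Its neighbour Dlk1 was at 20.8, 19.2 and 12.0 FPKM in F1-Control and at 4.80, 5.85 and 2.03 FPKM in F1-HHcy libraries. Dlk1 had the largest change of the 10 genes, -1.86 on the log2 scale (SE 0.303, adjusted p = 0.00677).

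Of the nuclear proteins, Cdkn1c was at 38.5, 45.5 and 24.8 FPKM in F1-Control and at 12.1, 12.8 and 10.7 FPKM in F1-HHcy libraries at Pd7. The log2 change of Cdkn1c was -1.50 (SE 0.208), and its adjusted p of 0.00402 was the smallest of the 10. Peg3 was at 64.1, 28.8 and 40.0 FPKM in F1-Control and at 20.7, 18.3 and 12.7 FPKM in F1-HHcy libraries. It fell by 1.26 on the log2 scale (SE 0.273, adjusted p = 0.0188). Plagl1 was at 56.8, 45.8 and 48.4 FPKM in F1-Control and at 52.4, 39.4 and 41.6 FPKM in F1-HHcy libraries, which overlapped, with a log2 change of -0.18 (SE 0.158, adjusted p = 0.457). Mest, the hydrolase-like protein, was at 7.20, 6.77 and 4.29 FPKM in F1-Control and at 2.56, 2.48 and 2.34 FPKM in F1-HHcy libraries, and it fell by 1.01 on the log2 scale (SE 0.187, adjusted p = 0.0107).

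The 6 calls at Pd7 remained 6 when 1 library was left out, except that 5 were left without F1-HHcy replicate 3, where Peg3 was not called. Without a filter on low levels, which raises the genes tested to 27626, none of the 10 genes passed (adjusted p from 0.0565 for Cdkn1c to 0.111 for Peg3 among the 6), and their log2 changes stayed as above. The unadjusted limma p of each of the 6 rose too, for Igf2 from 9.54e-05 to 0.00118, so not only the number of tests differed.

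**Figure D2:**
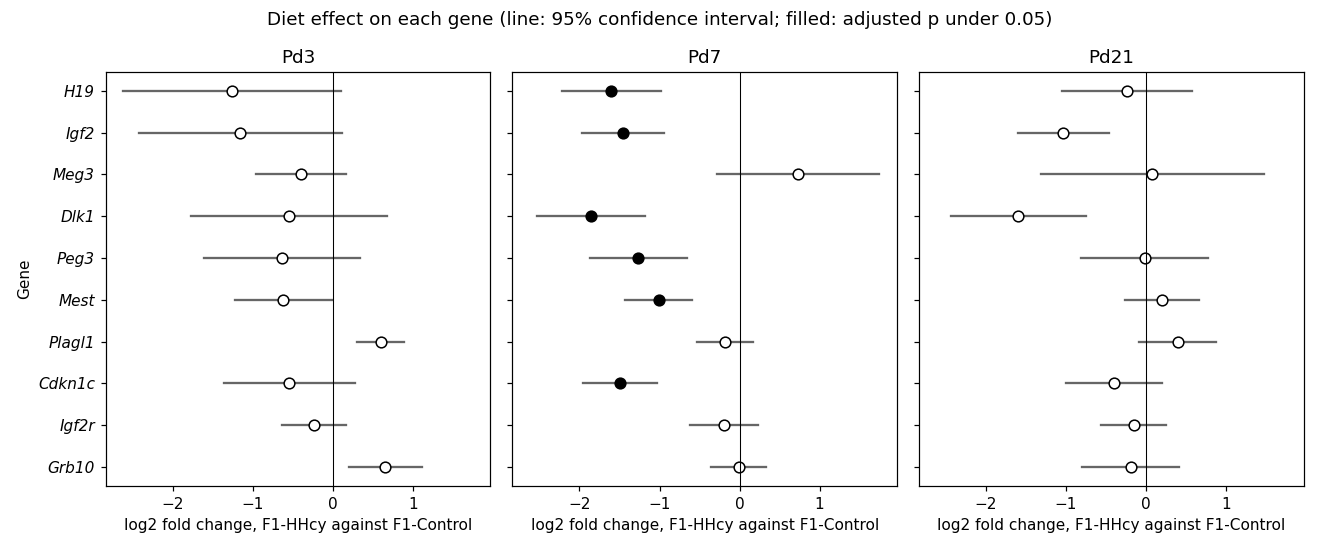
Log2 fold change of F1-HHcy against F1-Control for each gene (circles) with its 95% confidence interval (lines) at Pd3, Pd7 and Pd21, filled where the adjusted p was under 0.05. At Pd7 the 6 filled circles lie between -1.86 and -1.01, and at Pd3 and Pd21 no circle is filled.

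At Pd3 no member passed the test, against 1.64% of 13277 genes that rose and 1.43% that fell. With an unadjusted p under 0.05, Mest was lower and Plagl1 and Grb10 were higher, which is 3 members, against 12.6% of genes lower and 9.78% higher, and limma-voom on the recovered fragments called none. The F1-HHcy libraries of Pd3 stood far apart from each other. H19 was at 551, 637 and 640.0 FPKM in the F1-Control libraries and at 102, 235 and 678 FPKM in the F1-HHcy libraries. Replicate 1 of F1-HHcy was thus below and replicate 3 above every control. Igf2 followed with 75.9, 74.7 and 74.0 FPKM in F1-Control and 13.8, 29.6 and 85.3 FPKM in F1-HHcy libraries. The controls of Igf2 differed by less than those of nearly every other gene, with an SD on the log2 scale that was smaller in 1.41% of genes only, while 99.0% of genes had a smaller SD than Igf2 in the F1-HHcy libraries. The log2 changes were -1.26 (SE 0.585, adjusted p = 0.252) for H19 and -1.16 (SE 0.544, adjusted p = 0.256) for Igf2.

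In 8 of the 10 members F1-HHcy replicate 1 was the lowest and replicate 3 the highest of the 3 libraries, an order that 29.7% of all genes tested had. In replicates 1, 2 and 3, Dlk1 was at 7.73, 17.1 and 44.6 FPKM, Peg3 at 27.4, 57.6 and 107 FPKM and Cdkn1c at 22.0, 37.2 and 68.2 FPKM. Mest (4.26, 6.90 and 10.2 FPKM), Meg3 (15.6, 26.3 and 28.8 FPKM) and Igf2r (16.6, 19.5 and 23.6 FPKM) had the same order. Grb10 had the reverse order, with 52.2, 44.8 and 33.2 FPKM, and Plagl1 had neither, with 47.3, 58.5 and 49.3 FPKM. The F1-Control libraries at Pd3 held 21.8, 33.3 and 28.0 FPKM of Dlk1, 84.9, 79.9 and 95.6 FPKM of Peg3, 51.2, 61.1 and 57.2 FPKM of Cdkn1c and 11.0, 12.3 and 9.51 FPKM of Mest. Replicate 3 of F1-HHcy was therefore within or above the controls in these genes, and replicate 1 was below them in all 4.

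Leaving out F1-HHcy replicate 3 gave 8 called members at Pd3. H19 (log2 change -1.97, adjusted p = 0.0047), Igf2 (-1.83, 0.00343), Dlk1 (-1.17, 0.027), Peg3 (-1.10, 0.0231), Mest (-0.88, 0.0164) and Cdkn1c (-0.95, 0.0151) were then lower, and Plagl1 (0.63, 0.0158) and Grb10 (0.83, 0.0111) were higher. In that fit 12.3% of all genes fell and 9.34% rose, so the calls of the whole table depended on this library too. Leaving out replicate 1 gave no called member, with log2 changes of -0.60 for H19 and -0.56 for Igf2, and Dlk1 then stood at 0.02.

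Plagl1 was the only member without overlap at Pd3. It was at 29.9, 36.9 and 34.6 FPKM in F1-Control and at 47.3, 58.5 and 49.3 FPKM in F1-HHcy libraries, and 11.8% of all genes were higher without overlap. Its log2 change of 0.60 (SE 0.126) just missed the threshold (adjusted p = 0.0522) and met it with median-ratio scaling (adjusted p = 0.043). Grb10 was at 23.5, 24.5 and 33.3 FPKM in F1-Control libraries, against the F1-HHcy values given above, with a log2 change of 0.65 (SE 0.196, adjusted p = 0.112). Only the highest control of Grb10 and the lowest F1-HHcy library overlapped. Meg3 was at 27.1, 27.2 and 38.2 FPKM and Igf2r at 21.7, 20.7 and 28.8 FPKM in F1-Control libraries, and both overlapped with F1-HHcy, with log2 changes of -0.40 (SE 0.24) and -0.24 (SE 0.17).

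At Pd21 none of the 10 genes passed the test, while 2.23% of 13350 genes fell and none rose. Igf2 and Dlk1 lay below the controls without overlap, as did 8.61% of all genes, and these 2 also met the criterion of the study's volcano plots, an unadjusted p under 0.05 with a log2 change above 0.58 in size, as did 5.06% of genes on the lower side. Igf2 was at 8.46, 9.96 and 15.0 FPKM in F1-Control and at 5.94, 3.38 and 5.37 FPKM in F1-HHcy libraries, a log2 change of -1.03 (SE 0.25, adjusted p = 0.11). Dlk1 was at 3.37, 5.61 and 11.1 FPKM in F1-Control and at 1.37, 0.751 and 2.07 FPKM in F1-HHcy libraries, a log2 change of -1.59 (SE 0.369, adjusted p = 0.0873). Leaving out 1 library, the log2 change ran from -1.19 to -0.82 for Igf2 and from -1.94 to -1.20 for Dlk1. Both were smallest in size without F1-Control replicate 3, with limma adjusted p of 0.735 for Igf2 and 0.4535 for Dlk1. H19, in contrast to its neighbour Igf2, overlapped widely, with 73.2, 55.4 and 97.3 FPKM in F1-Control and 109, 55.0 and 40.0 FPKM in F1-HHcy libraries (log2 change -0.23, SE 0.354). Cdkn1c was at 11.2, 12.9 and 19.8 FPKM against 13.7, 7.48 and 11.3 FPKM, and Peg3 at 5.25, 7.09 and 10.6 FPKM against 12.99, 5.47 and 5.22 FPKM. Both sets overlapped, as did Meg3, for which F1-HHcy replicate 1 stood at 11.9 FPKM and the other 5 libraries of that day lay between 1.15 and 4.93 FPKM. Without that library the log2 changes were -0.72 for Meg3 (adjusted p = 0.399), -0.63 for H19 (0.378) and -0.40 for Peg3 (0.581). The changes of Mest (0.20), Plagl1 (0.40), Igf2r (-0.15) and Grb10 (-0.19) had 95% confidence intervals that include 0. In simulated data of this day, 165 of 200 genes changed by 1.5 on the log2 scale were called and none of 200 changed by 0.75. Only those 200 genes were altered, and an adjusted p depends on how many genes change. The simulation therefore does not show which size was detectable in the real data.

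Whether the diet effect itself differed between days was tested in 1 model of all 18 libraries, and no member passed. Between Pd21 and Pd7, 0.986% of all genes had a higher and 2.90% a lower difference by adjusted p, and 8.15% a higher difference by unadjusted p under 0.05. The difference of Mest came nearest, with 1.21 (SE 0.329, adjusted p = 0.0501), and was called with a pseudocount of 0.1, with median-ratio scaling, without mitochondrial and hemoglobin genes, with limma-voom, and without F1-Control Pd7 replicate 3 or F1-HHcy Pd21 replicate 1. Peg3 (1.24, adjusted p = 0.251), Cdkn1c (1.10, 0.194) and Plagl1 (0.58, 0.218) had an unadjusted p under 0.05 in the same direction, that is, a change that was less low at Pd21 than at Pd7. Between Pd7 and Pd3, where 0.103% of genes were higher and 0.308% lower by adjusted p, Plagl1 (-0.78, adjusted p = 0.193) and Cdkn1c (-0.95, 0.362) had an unadjusted p under 0.05, as had 7.33% of all genes on the lower side. Between Pd21 and Pd3, where 0.815% of genes were higher and 3.78% lower by adjusted p, and 5.62% higher and 10.4% lower by unadjusted p under 0.05, those with an unadjusted p under 0.05 were Mest (0.82, 0.212), called without F1-HHcy Pd3 replicate 3 (1.08, adjusted p = 0.0311), and Grb10 (-0.85, 0.187). A fall called at Pd7 and not on another day was thus not shown to differ between the days for any of the 6 genes.

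The second question was how the genes changed with age within a diet. From Pd3 to Pd7 in F1-Control ovaries, H19, Igf2, Peg3 and Mest fell and Plagl1 and Grb10 rose, against 7.59% of 13336 genes that fell and 6.90% that rose. The log2 change was -1.54 (SE 0.291, adjusted p = 0.0107) for H19, -1.50 (SE 0.208, 0.00291) for Igf2, -1.02 (SE 0.248, 0.0274) for Peg3 and -0.77 (SE 0.191, 0.0292) for Mest. It was 0.56 (SE 0.136, 0.0274) for Plagl1 and 0.62 (SE 0.173, 0.0445) for Grb10. Dlk1 (-0.66, adjusted p = 0.0757) and Cdkn1c (-0.66, 0.0604) also lay lower at Pd7 without overlap, as did 22.9% of all genes, while Meg3 (-1.18, 0.116) and Igf2r (-0.54, 0.11) overlapped. With the replicate number as a block, all 10 genes passed in this comparison, 8 lower and 2 higher, against 10.7% of all genes that were lower and 8.62% that were higher in that fit. No label says that these numbers pair the libraries, so the unblocked calls are the ones used here. Leaving out 1 library left between 1 and 7 called members. Only Igf2 remained without F1-Control Pd3 replicate 2, Igf2 and H19 without F1-Control Pd3 replicate 1 or F1-Control Pd7 replicate 3, and these with Grb10 without F1-Control Pd3 replicate 3.

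In F1-HHcy ovaries no gene of 13257 was called between Pd3 and Pd7, neither among the 10 nor elsewhere, although 12.7% of all genes were lower with an unadjusted p under 0.05, 7 of the members among them. Those 7 were H19 (log2 change -1.89, SE 0.592), Igf2 (-1.79, SE 0.564), Dlk1 (-1.97, SE 0.584), Peg3 (-1.66, SE 0.447), Mest (-1.16, SE 0.256), Cdkn1c (-1.61, SE 0.356) and Igf2r (-0.50, SE 0.146), and all 7 lay lower at Pd7 without overlap, as did 16.1% of genes. The same 7 were called once F1-HHcy Pd3 replicate 1, the lowest library at Pd3 in each, was left out, a fit in which 4.71% of all genes were lower and 4.25% higher, while leaving out Pd3 replicate 2 or 3 called no gene. The 6 apart from Igf2r were called when the spread was taken from all 18 libraries. In that fit 465 of 14607 genes were lower and 335 higher. Plagl1 (-0.22) and Grb10 (-0.05), which rose in F1-Control ovaries, had no detectable change here, and limma-voom on the recovered fragments called no member.

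From Pd7 to Pd21, where age and batch cannot be told apart, all genes but Plagl1 and Grb10 were lower in F1-Control ovaries, 8 of 10 against 12.1% of 14607 genes. Peg3 had the largest of these changes (-2.36, SE 0.41, adjusted p = 0.000558), followed by Meg3 (-1.76, SE 0.562, 0.026). In F1-HHcy ovaries Meg3 (-2.42, SE 0.562, adjusted p = 0.00976) and Igf2r (-0.57, SE 0.191, 0.0445) passed the test, both lower, against 9.19% of genes. Peg3 (-1.12, SE 0.41, adjusted p = 0.064), Dlk1 (-1.08, SE 0.48, 0.119), Igf2 (-0.76, SE 0.426, 0.215) and Grb10 (-0.60, SE 0.232, 0.0748) did not pass. Meg3, Igf2r, Igf2 and Grb10 were lower without overlap, as were 18.5% of all genes. Mest, Cdkn1c and H19, which were already low in F1-HHcy ovaries at Pd7, changed there by 0.30, -0.16 and -0.12 with intervals that include 0. Mest lay higher at Pd21 without overlap, as did 17.7% of all genes. Leaving out 1 library gave between 3 and 8 called members in F1-Control ovaries, the 3 being Peg3, Mest and Cdkn1c, without replicate 1 of Pd7 or of Pd21, with 5 called without Pd7 replicate 2 and 4 without Pd21 replicate 2. In F1-HHcy ovaries it gave none without Pd7 replicate 2 or Pd21 replicate 3, only Meg3 without Pd7 replicate 1, Pd7 replicate 3 or Pd21 replicate 2, and 3 without Pd21 replicate 1, where Peg3 joined.

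**Figure D3:**
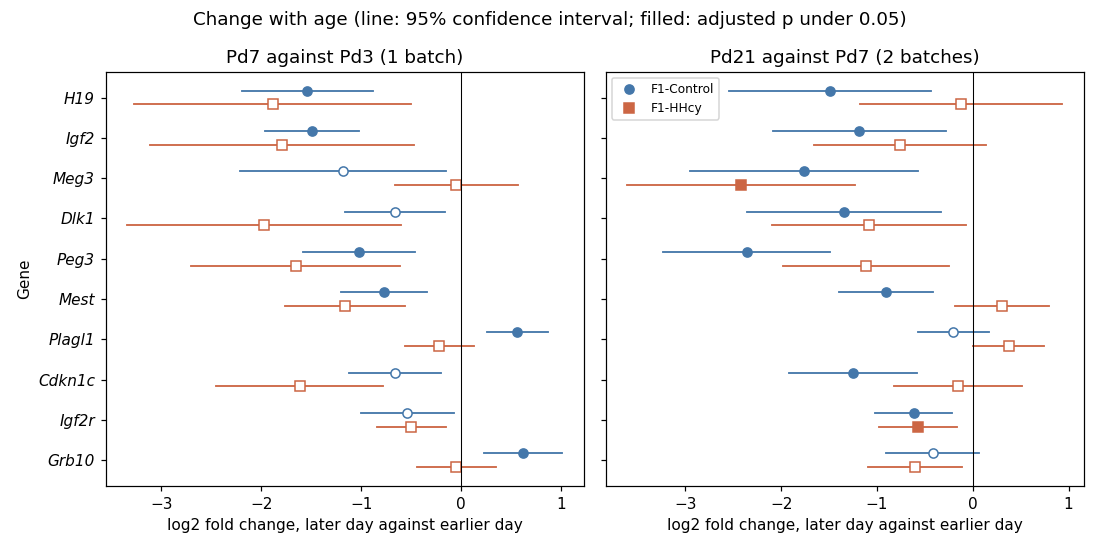
Log2 fold change of Pd7 against Pd3 (left) and of Pd21 against Pd7 (right) for each gene in F1-Control (circles) and F1-HHcy ovaries (squares), with 95% confidence intervals, filled where the adjusted p was under 0.05. On the left Plagl1 and Grb10 lie above 0 in F1-Control only and no square is filled, and on the right 8 circles and 2 squares are filled.

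Ratios of 2 members within a library were compared because they do not depend on the scaling of the library. With 3 libraries against 3 the 2-sided exact permutation test cannot give a p below 0.1, and 12 ratio tests were made. H19 and Igf2, which share their controlling region and are transcribed from opposite parental copies, had nearly the same ratio at Pd3 and Pd7 across libraries with very different levels. The level of H19 was 8.14 ± 0.769 (SD, n = 3) times that of Igf2 in F1-Control and 7.75 ± 0.331 times in F1-HHcy ovaries at Pd3, and 8.14 ± 1.54 and 7.75 ± 0.98 times at Pd7. Even F1-HHcy Pd3 replicates 1 and 3, with 102 and 678 FPKM of H19, had ratios of 7.37 and 7.95. At Pd21 the ratio was 8.65, 5.57 and 6.50 in F1-Control and 18.3, 16.3 and 7.45 in F1-HHcy libraries, which overlapped (exact permutation p = 0.2, n = 3 a group).

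Meg3 and Dlk1, the other pair that shares a domain, had ratios that did not overlap between the diets at Pd7 and at Pd21, which did not pass after adjustment. At Pd3 the ratio overlapped, from 0.816 to 1.37 in F1-Control and from 0.644 to 2.02 in F1-HHcy libraries (exact permutation p = 0.8). The ratio at Pd7 was 1.40, 0.274 and 1.10 in F1-Control and 4.44, 4.93 and 8.54 in F1-HHcy libraries, without overlap (exact permutation p = 0.1, the smallest possible, 0.24 after adjustment over the 12 tests). At Pd21 it was again higher in all 3 F1-HHcy libraries, at 8.72, 1.53 and 0.902 against 0.626, 0.878 and 0.24 (exact permutation p = 0.1). The clearing receptor had a higher ratio to its ligand in all F1-HHcy than in all F1-Control libraries at Pd7 and at Pd21 (exact permutation p = 0.1 on each day, 0.24 after adjustment). Igf2r was at 1.31, 1.41 and 2.04 times the level of Igf2 at Pd7, against 0.611, 0.439 and 0.853 in F1-Control, and at 1.73, 2.54 and 1.47 against 1.18, 0.832 and 0.801 at Pd21. Cdkn1c had 1.38 ± 0.266 times the level of Igf2 in F1-Control and 1.35 ± 0.137 times in F1-HHcy ovaries at Pd7. At Pd21 the ratio was narrow in both diets, with 1.33, 1.29 and 1.32 in F1-Control and 2.31, 2.22 and 2.10 in F1-HHcy libraries (exact permutation p = 0.1, 0.24 after adjustment).

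**Figure D4:**
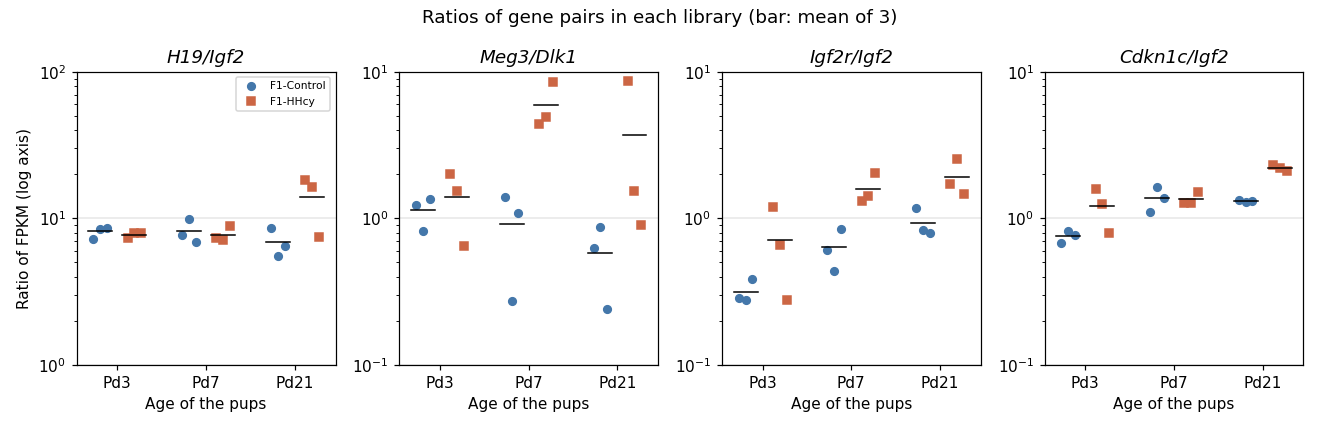
Ratio of the FPKM of 2 genes in each library on a log axis (circles F1-Control, squares F1-HHcy, black bars group means) by day, 1 panel per pair. H19/Igf2 lies between 6.88 and 9.86 in all 12 libraries of Pd3 and Pd7, Meg3/Dlk1 is higher in every F1-HHcy than in every F1-Control library at Pd7 and Pd21, and Cdkn1c/Igf2 separates at Pd21.

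In F1-Control ovaries the share of the 10 genes in the summed FPKM of a list of 86 imprinted genes was smaller on each later day. Batch and age were not separable at Pd21. They made up 39.3% ± 1.19 (SD, n = 3) of the summed FPKM of 86 imprinted genes in F1-Control ovaries at Pd3, 19.3% ± 2.48 at Pd7 and 9.57% ± 1.29 at Pd21. In F1-HHcy ovaries the shares were 24.3% ± 12.5, 12.2% ± 0.513 and 10.6% ± 2.23. The shares at Pd3 ran from 14.2% to 38.3% in F1-HHcy and from 38.3% to 40.6% in F1-Control libraries. At Pd7 the highest F1-HHcy library (12.5%) was below the lowest F1-Control library (16.5%), and at Pd21 the diets overlapped. H19 alone made up 62.1%, 45.4% and 36.2% of the summed FPKM of the 10 genes in F1-Control ovaries at Pd3, Pd7 and Pd21. In F1-HHcy ovaries it made up 45.7%, 29.0% and 33.35%. These shares therefore depend strongly on the level of H19.

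Few of the other imprinted genes were called at Pd7, when 5.88% of all genes rose and 5.98% fell. Of 15 other paternally expressed genes tested 1 rose and none fell, and of 16 other maternally expressed genes none was called, with list medians of 0.01 and -0.04 on the log2 scale. The gene that rose was Nnat, a membrane proteolipid, with a mean of 99.7 FPKM ± 13.5 in F1-HHcy against 55.9 ± 19.6 in F1-Control ovaries (log2 change 0.87, SE 0.228, adjusted p = 0.0387). At Pd3, Nap1l5 rose (1.86, SE 0.283, adjusted p = 0.025) and Kcnq1 fell (-0.79, SE 0.137, 0.0324), against 1.64% of all genes that rose and 1.43% that fell. At Pd21 none of 30 was called, against 2.23% of all genes that fell. Among 9 factors that keep imprints, Dppa3, an oocyte protein that guards methylation of the maternal genome, fell at Pd7 (-1.16, SE 0.287, adjusted p = 0.0316). Among 4 that set imprints in the growing oocyte, the demethylase Kdm1b fell (-0.999, SE 0.173, 0.00824) and Dnmt3l, the cofactor of the methyltransferases, rose (1.15, SE 0.293, 0.0347). None of these factors was called at Pd3 or Pd21.

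Genes of IGF signalling outside the members changed in both directions at Pd7, 2 higher and 3 lower of 12 tested. Of all genes tested at Pd7, 5.88% rose and 5.98% fell, and no list was tested as a whole. The receptor Igf1r (log2 change 0.95, SE 0.253, adjusted p = 0.0398) and its substrate Irs1 (1.03, SE 0.157, 0.00583) rose, and the binding proteins Igfbp2 (-1.14, SE 0.212, 0.0107) and Igfbp3 (-1.06, SE 0.199, 0.0109) fell, as did Igfbp4 (-0.76, SE 0.198, 0.0381). At Pd3 the binding protein Igfbp5 rose (0.62, SE 0.114, 0.0387), and at Pd21 Igfbp3 fell (-1.47, SE 0.285, 0.039). Over all genes, 1.64% rose at Pd3 and 2.23% fell at Pd21. Of a list of 10 genes, inhibitors related to Cdkn1c and cell cycle kinases and cyclins, 4 fell at Pd7 and none rose. They were Ccnd1 (-1.04, SE 0.2), Ccnd2 (-0.71, SE 0.153), Ccnd3 (-0.79, SE 0.175) and the related inhibitor Cdkn1a (-0.88, SE 0.224). Of 10 Notch genes, the pathway to which Dlk1 relates, 2 fell, the target genes Hes1 (-0.89, SE 0.206) and Hey1 (-0.93, SE 0.196), and none rose.

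Markers of several cell types moved beside the members, and their part in the results was not tested. The counts of markers called at Pd7 stand against 5.88% of all genes that rose and 5.98% that fell. At Pd7 5 of 8 germ cell markers fell, among them the factors of the small oocyte Sohlh1 (log2 change -2.66, SE 0.264) and Figla (-2.17, SE 0.275), and the summed list ran from 429 to 761 FPKM in F1-HHcy and from 714 to 1190 FPKM in F1-Control libraries. All 6 theca and steroidogenic markers rose, and their sum was between 1136 and 1195 FPKM in F1-HHcy and between 216 and 449 FPKM in F1-Control libraries. Of 6 markers of oviduct and surface epithelium 4 fell (sums of 143 to 276 against 311 to 505 FPKM). All 5 erythroid markers tested fell (287 to 502 against 925 to 5791 FPKM). Granulosa markers had sums of 454 to 748 FPKM in F1-HHcy and 216 to 474 FPKM in F1-Control libraries, with 1 of 8 higher and 1 lower. Mesenchyme and stroma overlapped (703 to 1042 against 815 to 1013 FPKM), and none of 8 proliferation markers was called. Immune markers had sums of 53.6 to 55.3 FPKM in F1-HHcy and 82.5 to 373 FPKM in F1-Control libraries, with 2 of 6 lower. No marker of these lists was at 0 in all 3 libraries of a group at Pd7.

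At Pd3 the theca, granulosa, smooth muscle, endothelial and proliferation lists were highest in F1-HHcy replicate 1 and lowest in replicate 3, the reverse of most members. The theca and steroidogenic sum was 679, 349 and 71.3 FPKM in F1-HHcy replicates 1, 2 and 3, against 98.4 to 152 FPKM in F1-Control libraries, and that of granulosa markers was 458, 301 and 198 FPKM against 154 to 166 FPKM. Smooth muscle markers were at 365, 275 and 65.6 FPKM against 98.2 to 139 FPKM. Other lists separated the diets at Pd3 without that order, on a day when 1.64% of all genes rose and 1.43% fell. Erythroid (784 to 1108 against 3941 to 11290 FPKM, all 7 fell) and immune sums (72.5 to 172 against 284 to 1013 FPKM, none of 6 called) were lower in all 3 F1-HHcy libraries. Germ cell (711 to 864 against 538 to 640 FPKM, 2 of 8 rose) and mesenchyme sums (828 to 952 against 476 to 639 FPKM, 4 of 7 rose) were higher in all 3. The endothelial sums, which did have that order, were also higher in all 3 F1-HHcy libraries (62.0 to 88.8 against 35.4 to 49.2 FPKM, none of 5 called). At Pd21, where Igf2 and Dlk1 were lowest in F1-HHcy, all 6 multiciliated markers and 3 of 6 oviduct and surface epithelium markers fell (sums of the latter 89.4 to 160.1 against 264 to 702 FPKM). Of all genes, 2.23% fell on that day. Adipocyte sums ran from 5.64 to 45.0 FPKM in F1-HHcy and from 22.9 to 279.9 FPKM in F1-Control libraries, with the highest in F1-Control replicate 3.

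**Figure D5:**
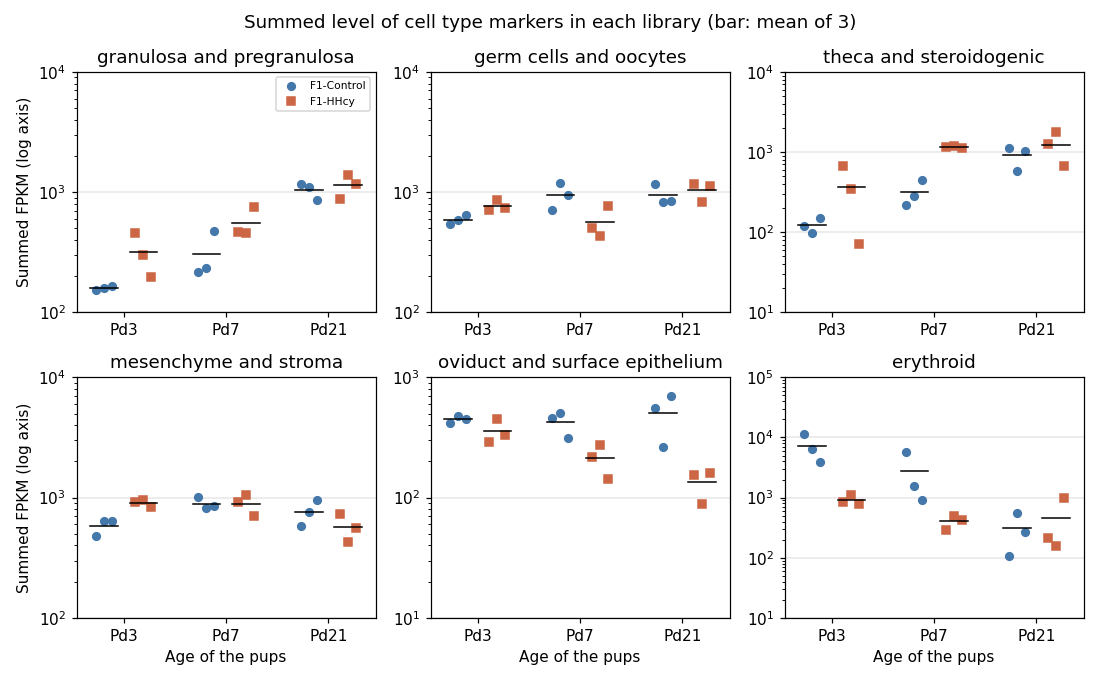
Summed FPKM of 6 marker lists in each library on a log axis (circles F1-Control, squares F1-HHcy, black bars group means) by day. At Pd7 the theca and steroidogenic sum is higher and the oviduct and surface epithelium and erythroid sums are lower in every F1-HHcy than in every F1-Control library, and at Pd3 the F1-HHcy libraries of the theca and granulosa lists spread from 71.3 to 679 and from 198 to 458 FPKM.

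The genes whose pattern was most like that of H19 over the 18 libraries were Colec12 (Pearson r = 0.986), Rbm44 (0.978) and Prdm4 (0.978), as a description on the log2 scale, with the day, the diet and the library shared by all genes. The group means of Colec12 were highest in F1-Control ovaries at Pd3 (54.7 FPKM) and lowest in F1-HHcy ovaries at Pd7 (17.1 FPKM), a difference that was not tested. Among the members, Cdkn1c (0.964, place 31 of all genes) and Igf2 (0.962, place 39) were nearest to H19, and Grb10 (-0.08) and Plagl1 (-0.36) farthest. The genes most like the mean of the 10 were Gm46162 (0.973), Rap1gap (0.969) and Med14 (0.968).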

How the data were processed

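Poly(A) RNA of whole ovaries was sequenced from stranded TruSeq libraries, 3 libraries in each of 6 groups of maternal diet and postnatal day. The authors deposited 1 table of normalised values without a named unit. The deposited values behave as FPKM, since 99.989% of 27294 genes were whole multiples of the value of 1 fragment, and the fragments per library recovered in this way give the depth. The submitters' processing notes name FastQC 0.11.9, Trimmomatic 0.39, STAR 2.7.9a, featureCounts 2.0.1, DESeq2 1.36.0 and the build GRCm38 (mm10), without saying what each step did. Whether counting used the strand, and how reads of overlapping genes were assigned, is not given in the sources used here.

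Log2(FPKM + 1) was tested with limma 3.58.1 (trend, R 4.3.3) on genes that reached 1 FPKM in 3 or more libraries of a fit, with Benjamini-Hochberg adjustment over all genes tested and a threshold of 0.05. Comparisons of diets, and of Pd7 with Pd3, were fitted on their 6 libraries. Comparisons of Pd21 with Pd7, and of diet effects between days, were fitted on all 18 libraries as 6 groups. Tests on simulated data with 200 altered genes called 186 of them at Pd7 when altered by 1.5 on the log2 scale and 1 when altered by 0.75. More genes were called in the real data of that day, and an adjusted p depends on how many genes change. The simulation therefore does not show which size was detectable at Pd7 either. Same-numbered libraries deviated together only between Pd3 and Pd7 in F1-Control ovaries (r = 0.119, 0.244 and 0.26 for replicates 1, 2 and 3). No label pairs these libraries, and a check on the same values cannot show that the numbers pair them. The blocked result of this comparison is given in the text beside the unblocked result. Ratios were tested with an exact permutation test in scipy 1.17.1. Promoter windows and coordinates came from RefSeq (GRCm38.p6).

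The 10 members, the other lists of genes and the rule that genes outside the members are named only when called in a list, or when most like H19 or the mean of the members, were chosen with earlier results of these data known. Alternatives were another pseudocount, no filter on low values, median-ratio scaling, removal of mitochondrial and hemoglobin genes, a replicate block, limma-voom, 1 model of all libraries, the criterion of the study's volcano plots, and leaving out each library.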

Additional observations from a re-analysis of the deposited data

How the results depend on the processing

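Of the counts of called members in the 10 comparisons, recomputed under every alternative, 115 stayed within 1.5 times the count given above and 38 did not, and the cause was not tested except where stated. Without a filter on low values, which tests more genes and changes the unadjusted p too, the count was 0 at Pd7, 1 for Pd7 against Pd3 in F1-Control, 4 for Pd21 against Pd7 in F1-Control and 1 for that comparison in F1-HHcy ovaries. With all 18 libraries in 1 model it was 3 for Pd7 against Pd3 in F1-Control (888 of 14607 genes lower and 770 higher) and 6 in F1-HHcy ovaries (465 lower and 335 higher). With a replicate block it was 10 for Pd7 against Pd3 in F1-Control ovaries and 1 at Pd21 (Dlk1, adjusted p = 0.0145), where the libraries share only a number in either case, and the block changed no other count by over 1.5 times. Same-numbered libraries of the other comparisons correlated by -0.314 to 0.183. Median-ratio scaling gave 1 at Pd3. For the diet effect at Pd21 minus that at Pd7 the count was 1 (Mest) with a pseudocount of 0.1, with median-ratio scaling, without mitochondrial and hemoglobin genes and with limma-voom. The criterion of the study's volcano plots was an unadjusted p under 0.05 and a log2 change above 0.58 in size. By it the counts were 3 at Pd3 and 2, both lower, at Pd21. Between 4.74% and 5.06% of all genes met it on either side at Pd3 and on the lower side at Pd21. In F1-HHcy ovaries 6 members were lower for Pd7 against Pd3, against 5.36% of genes. For Pd21 against Pd7 there, 4 were lower, against 9.68%. The differences of diet effects gave 2 lower between Pd7 and Pd3 (5.28% of genes) and 3 higher between Pd21 and Pd7 (5.55%). Between Pd21 and Pd3 they gave 1 higher and 1 lower, against at most 9.04% of genes on either side.

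Leaving out 1 library gave 0 to 8 called members at Pd3, 1 to 7 for Pd7 against Pd3 in F1-Control and 0 to 7 in F1-HHcy ovaries, 3 to 8 for Pd21 against Pd7 in F1-Control and 0 to 3 in F1-HHcy ovaries, and 0 to 1 for the differences of diet effects between Pd21 and Pd7 and between Pd21 and Pd3. Each group then kept at least 2 libraries. Changes of sign occurred only in genes that were not called. Leaving out 1 library, the diet effect at Pd3 ran from -1.17 to 0.0236 for Dlk1. At Pd7 it ran from -0.37 to 0.0026 for Igf2r and from -0.13 to 0.11 for Grb10. At Pd21 it ran from -0.63 to 0.0778 for H19, from -0.72 to 0.58 for Meg3, from -0.40 to 0.22 for Peg3 and from -0.45 to 0.12 for Grb10. In F1-HHcy ovaries, Pd7 against Pd3 ran from -0.31 to 0.12 for Meg3 and from -0.22 to 0.10 for Grb10, and Pd21 against Pd7 from -0.52 to 0.19 for H19 and from -0.33 to 0.0655 for Cdkn1c. The diet effect at Pd21 was -0.0204 with a pseudocount of 0.1 and -0.0554 with limma-voom for Meg3, and 0.0327 with median-ratio scaling for Peg3. The members had at least 142 fragments in every library, and how much of their spread counting error makes up was not tested.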
